A study of Danio rerio with 9 samples.

Results

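The DEAD and DEAH box RNA helicases were followed in Müller glia (MG) of the adult zebrafish retina, the glial cells that divide and give rise to progenitors after retinal injury. Members were all genes of the deposited count table whose symbol begins with ddx or dhx and a number, in any letter case. This gave 52 of 23707 gene IDs, 35 with a ddx and 17 with a dhx symbol. Symbols are written here in lower case, and 2 IDs that share the symbol dhx32 were kept apart. The names ddx39aa, ddx39ab and ddx19b were taken from the study's supplement. In the names table the first 2 share the symbol DDX39A, and ddx19b has the symbol DDX19A. DEAD box genes are among the families that the study itself counted on these libraries, so their direction here is no independent evidence.

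GFP+ cells were sorted by FACS from dissociated retinas of gfap:GFP fish, in which a glial promoter drives GFP in MG and in the progenitors that descend from them, and polyA RNA was sequenced in 9 libraries. The 3 groups of 3 libraries were mych-/- fish at 2 days after needle poke injury (2 dpi), Wt fish at 2 dpi and Wt fish without injury (Wt uninjured). All carried the gfap:GFP transgene, the fish were adults of both sexes and retinas were pooled before sorting. The mych-/- fish carried CRISPR-made lesions of mych, a Myc family transcription factor gene, and no uninjured mych-/- group was part of the design, so a difference that was there before injury and a difference in the injury response cannot be told apart. No label says that the replicates came from separate fish, so that p-values measure the spread between these samples, which may be technical.

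DEAD and DEAH box proteins use ATP to unwind short RNA duplexes or to strip proteins from RNA. Most are tied to a single step of RNA life, and the roles used here come from work in yeast and human cells. Nucleolar members act on the ribosomal RNA precursor and let small nucleolar RNAs and assembly factors come off, splicing members drive the rearrangements of the spliceosome, and cytoplasmic members act in translation, storage and decay of mRNA.

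Library totals ran between 46835977 and 77133615 counts. The counts of mych itself were 145, 197 and 158 CPM (CPM is the count scaled to library size) in mych-/- libraries at 2 dpi, 180, 233 and 319 CPM in Wt libraries at 2 dpi, and 19.95, 11.04 and 25.9 CPM in Wt uninjured libraries. Transcripts of an edited allele are still counted, so this level is no check of the genotype. Rod, cone and inner retinal neuron markers were lower at 2 dpi in Wt, with 10 of 13, 6 of 7 and 9 of 11 tested IDs called. Summed rod marker levels, for example, were 1492 to 3067 CPM in mych-/- libraries at 2 dpi, 1272 to 3468 CPM in Wt libraries at 2 dpi, and 14320 to 27950 CPM in Wt uninjured libraries. The 6 MG marker IDs found summed to 9512 to 26120 CPM in mych-/- at 2 dpi, 10290 to 18870 CPM in Wt at 2 dpi and 4142 to 7548 CPM in Wt uninjured libraries. Only 2 of the 6 were called higher with injury and 0 lower. They did not move together: gfap rose (log2 fold change 1.84), while rlbp1a was not called (-0.29). Microglia and macrophage markers, 5 of 9 called higher with injury, summed to 49.4 to 86.9, 61.9 to 80.9 and 14.6 to 35.7 CPM in mych-/- at 2 dpi, Wt at 2 dpi and Wt uninjured libraries. The ranges of both 2 dpi groups overlapped for these 5 lists. The neuronal and microglial markers moved with injury, and their part in the injury results was not tested. In bulk samples, fewer cells of a type and less RNA per cell cannot be told apart.

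Helicases took 0.423% to 0.502% of all counts in mych-/- libraries at 2 dpi, 0.478% to 0.563% in Wt libraries at 2 dpi and 0.318% to 0.379% in Wt uninjured libraries. After the filter on low counts 51 members were tested. The member left out was ddx4 (vasa), a germ cell helicase, with 11 counts in mych-/- replicate 3 and 0 in the other libraries. Another germline member, ddx43, was tested but lay at 0.541 CPM or less in every library. Calls required an adjusted p no higher than 0.05 and a log2 fold change beyond 0.5 in either direction.

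In Wt MG at 2 dpi against Wt uninjured MG, 28 of the 51 members rose and 1 fell, 56.9% in all, beside 42.1% of the 20484 genes tested (22.3% higher, 19.8% lower). The median log2 fold change of the members was 0.94, against -0.02 over all genes. Both Wt groups did not overlap for 31 members that were higher at 2 dpi and for 3 that were lower, beside 28.7% and 27.9% of all genes. In mych-/- MG against Wt MG at 2 dpi, 9 of the 51 members fell, 17.6%, beside 1.69% of all genes (0.366% higher, 1.33% lower), and the median of the members was -0.41, against 0.03 over all genes. Libraries of the genotypes did not overlap for 30 members that were lower in mych-/- and for 1 that was higher, beside 14.5% and 9.28% of all genes. An unadjusted p under 0.05 was reached by 24 members between genotypes, beside 19.4% of all genes. The injury and genotype comparisons share the Wt 2 dpi libraries, so that a chance deviation of those libraries moves both in opposite directions.

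**Figure D1:**
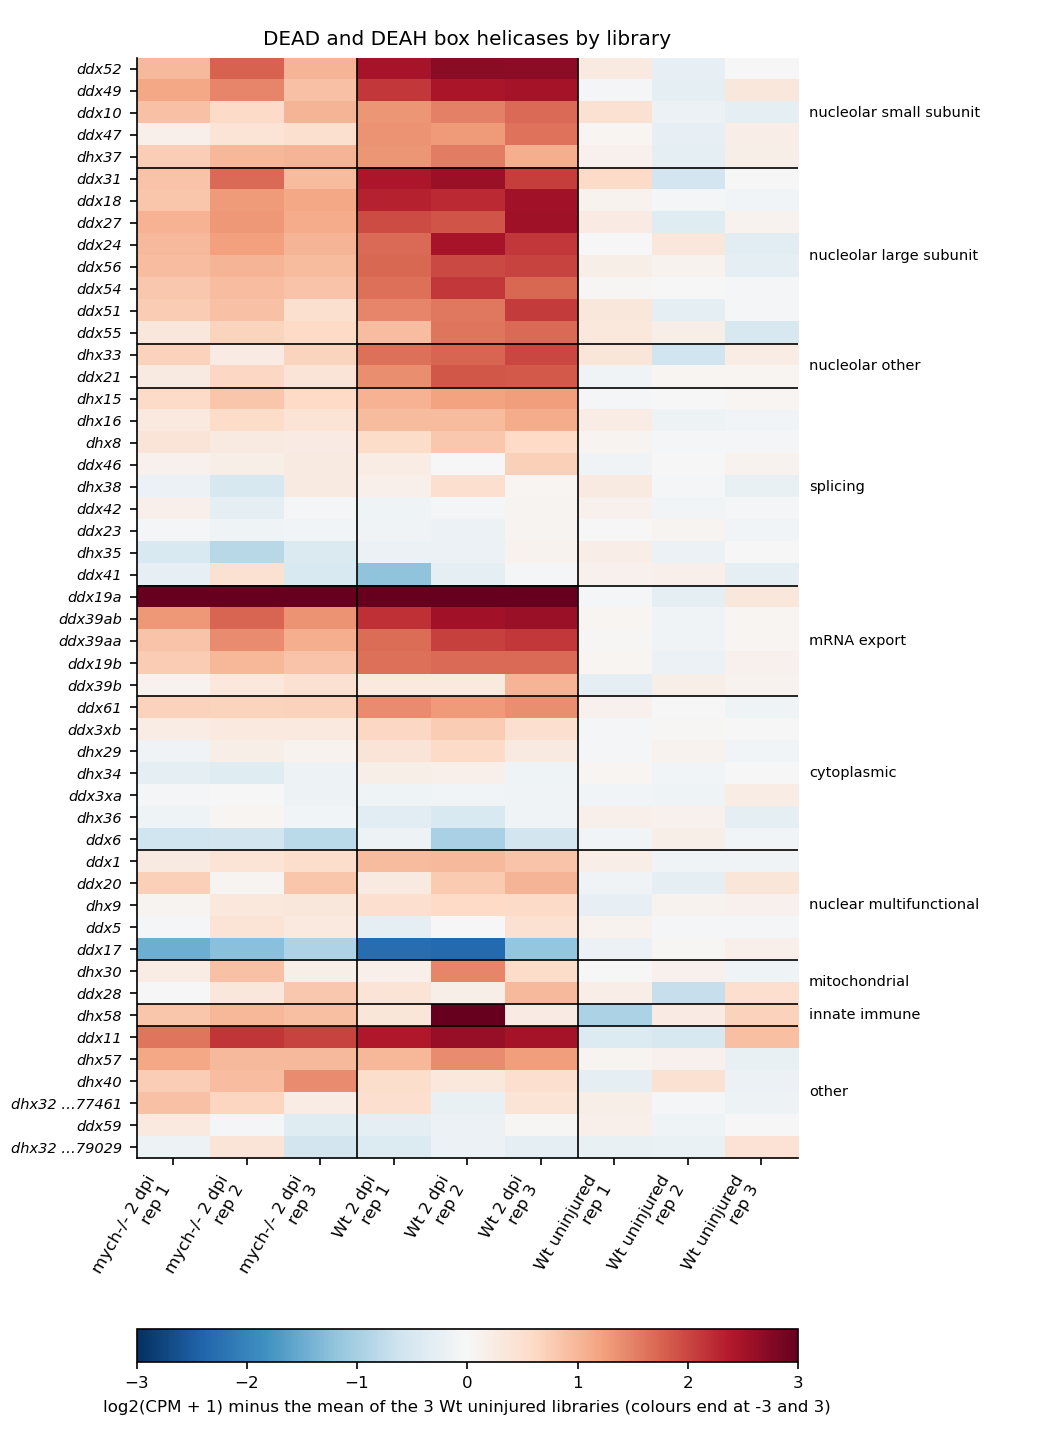
Level of 50 helicases (rows, grouped by role) in each of the 9 libraries (columns), as log2(CPM + 1) minus the mean of the 3 Wt uninjured libraries. Colours end at -3 and 3. Rows of the 15 nucleolar members are paler red in the mych-/- 2 dpi columns than in the Wt 2 dpi columns, while most splicing and cytoplasmic rows stay near white.

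The role groups differed in how many members were called. All 15 nucleolar members rose in Wt at 2 dpi, with log2 fold changes from 1.37 to 2.76 and a median of 1.99, and the Wt 2 dpi and Wt uninjured libraries overlapped for none of them, beside 28.7% of all genes that were higher without overlap. Of 9 splicing members 3 rose, with a group median of 0.25, and of 7 cytoplasmic members 2 rose, with a median of 0.08, beside 22.3% of all genes higher. Among 5 mRNA export members 4 rose, with a median of 2.00. Between genotypes at 2 dpi, 7 of the 15 nucleolar and 2 of the 5 export members fell in mych-/-, beside 1.33% of all genes. Their group medians were -1.07 and -0.83. edgeR called 0 of 9 splicing members there (3 had an unadjusted p under 0.05, and DESeq2 called 2). It also called 0 of 7 cytoplasmic members (2 had an unadjusted p under 0.05, and DESeq2 called 1). Of all genes, 19.4% had an unadjusted p under 0.05 between genotypes, and DESeq2 called 8.68%. The median was -0.36 in the splicing and in the cytoplasmic group.

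The genotype calls rested on which libraries were in the fit. Without mych-/- replicate 1, mych-/- replicate 3 or Wt 2 dpi replicate 2 edgeR called 0 members (22, 21 and 21 had an unadjusted p under 0.05). The share of all genes with such a p was not counted in these fits. Over all genes these fits called 0.0421%, 0.132% and 0.0376%. Without Wt 2 dpi replicate 3 it called 2 members, beside 0.249% of all genes. Without Wt uninjured replicate 1, 2 or 3 it called 4, 4 and 6, beside 0.791%, 0.768% and 1.07% of all genes. Without Wt 2 dpi replicate 1 or mych-/- replicate 2 it called 13, beside 4.61% and 4.81%. The count over all genes thus moved with that of the members. The calls of ddx18 and ddx21 were lost in the 3 fits with no call, those of ddx52 and ddx54 also without Wt 2 dpi replicate 3, and those of ddx49 and ddx56 also without Wt uninjured replicate 1 or 2. Those of ddx47, ddx19b and ddx39ab held only in the 2 fits with 13 calls. DESeq2 called 20 members, all lower, 13 of them nucleolar, beside 8.68% of all genes. The direction of the nucleolar members was the same in all these fits: each of the 15 had a negative log2 fold change. With all libraries none of the 15 overlapped between genotypes, beside 14.5% of all genes that were lower without overlap. Other groups also had such members: 4 of 9 splicing, 4 of 7 cytoplasmic and 4 of 5 export members were lower without overlap.

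**Figure D2:**
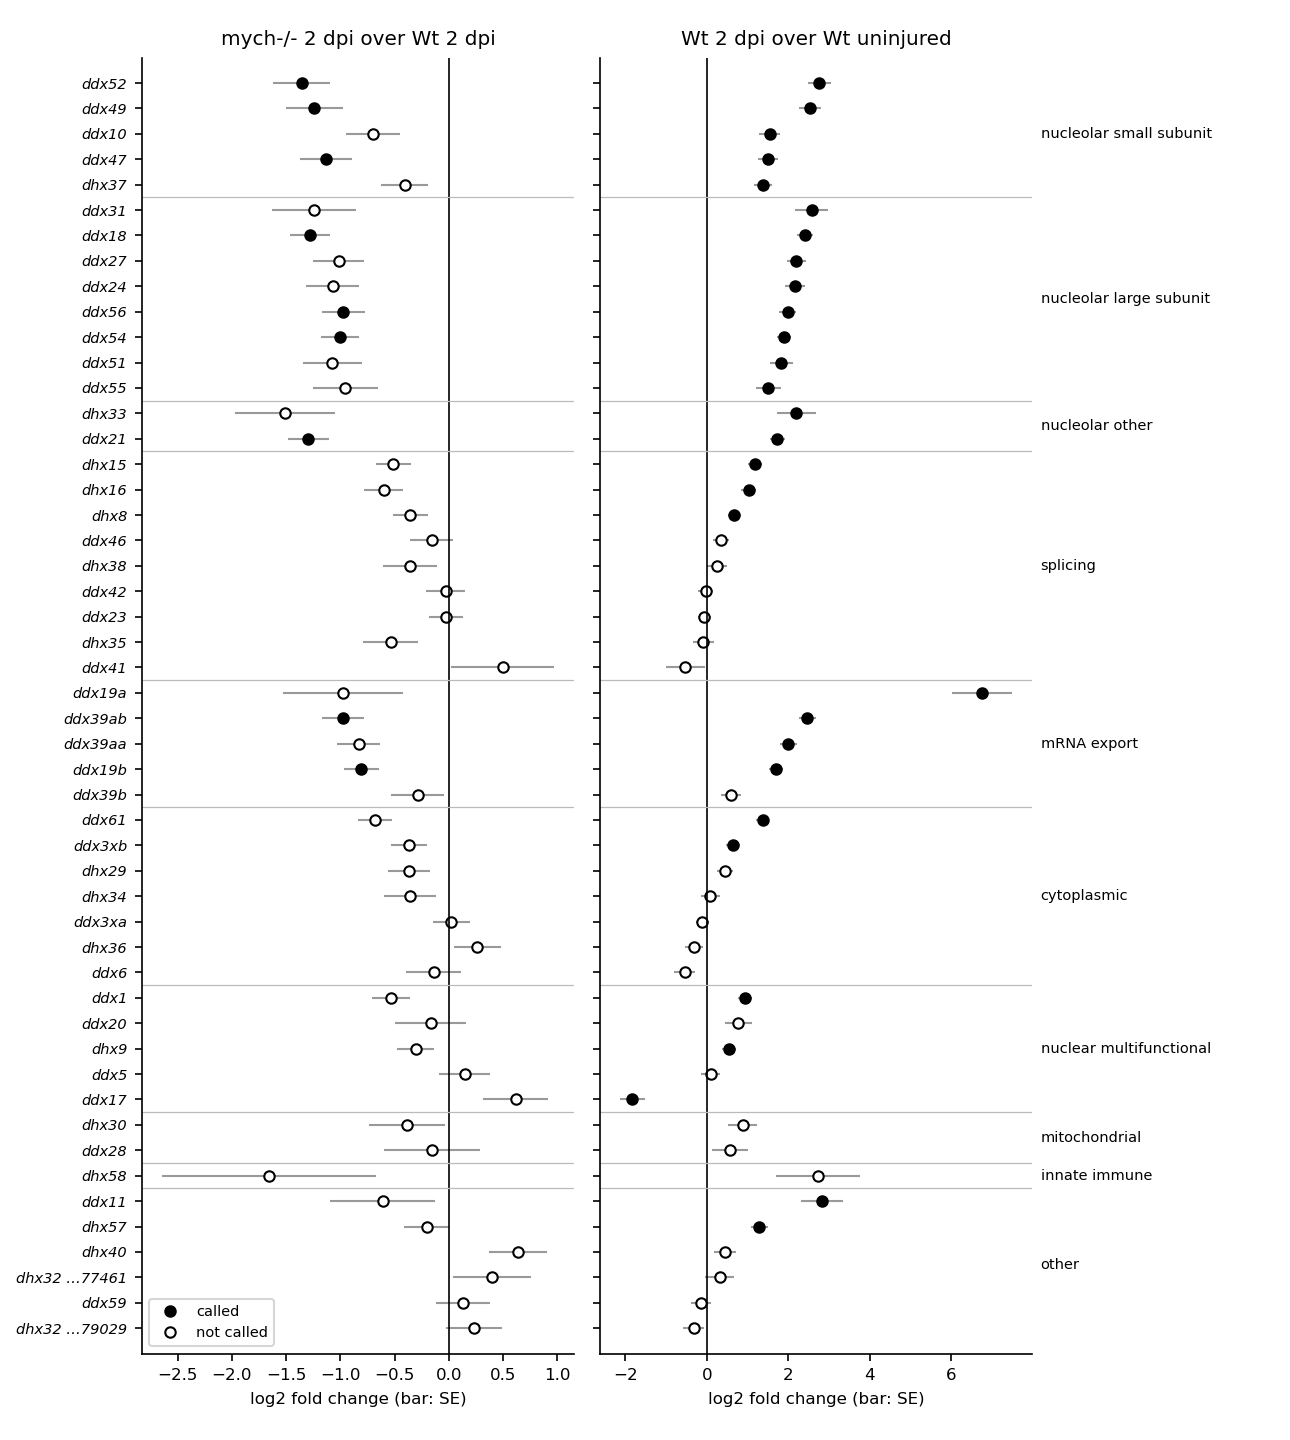
Log2 fold change of 50 helicases with its standard error, for mych-/- 2 dpi over Wt 2 dpi (left) and Wt 2 dpi over Wt uninjured (right). Filled points were called. All 15 nucleolar points lie left of 0 on the left side, where 7 are filled, and right of 1 on the right side, where all are filled.

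Small subunit assembly was represented by ddx10, ddx47, ddx49, ddx52 and dhx37, whose yeast relatives act on the 18S part of the ribosomal RNA precursor. The largest rise of any nucleolar member was that of ddx52, the relative of yeast Rok1. Levels of ddx52 were 15.8, 28.2 and 16.1 CPM in mych-/- libraries at 2 dpi, 46.5, 54.1 and 53.4 CPM in Wt libraries at 2 dpi, and 9.23, 6.14 and 7.42 CPM in Wt uninjured libraries. The groups did not overlap, and its log2 fold change was 2.76 (SE 0.28, adjusted p = 1.69e-05) for Wt 2 dpi over Wt uninjured and -1.36 (SE 0.27, adjusted p = 0.0372) for mych-/- over Wt at 2 dpi. The relative of yeast Dbp8, ddx49, had the same order of groups. In mych-/- MG at 2 dpi ddx49 had 14.7, 18.3 and 11.7 CPM, against 29.6, 37.4 and 38.6 CPM in Wt at 2 dpi and 5.76, 4.73 and 7.77 CPM in Wt uninjured libraries. Its log2 fold change was 2.53 (SE 0.28, adjusted p = 2.82e-05) with injury and -1.24 (SE 0.26, adjusted p = 0.0421) between genotypes, again with no overlap.

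The remaining small subunit members rose less. The gene ddx47 had 10.3, 12.5 and 13.3 CPM in mych-/- MG at 2 dpi, 24.98, 23.6 and 30.6 CPM in Wt MG at 2 dpi and 9.58, 7.52 and 10.7 CPM in Wt uninjured MG. Its yeast relative Rrp3 takes part in early cleavage of the precursor. Here ddx47 had a log2 fold change of 1.51 (SE 0.24, adjusted p = 0.000459) with injury and -1.13 (SE 0.24, adjusted p = 0.0423) between genotypes, and in mych-/- MG it was not called against Wt uninjured MG (log2 fold change 0.37). For ddx10, 26.2, 21.3 and 29.2 CPM were measured in mych-/- at 2 dpi, 36.01, 41.1 and 47.4 CPM in Wt at 2 dpi and 19.3, 12.2 and 11.3 CPM in Wt uninjured libraries. Neither comparison had overlapping groups, but only the injury difference was called at 1.54 (SE 0.25, adjusted p = 0.00049), against -0.70 (SE 0.25, adjusted p = 0.154) between genotypes. The smallest genotype difference of the nucleolar group was that of dhx37, the relative of yeast Dhr1, which pulls the U3 small nucleolar RNA off the precursor. For dhx37 the libraries gave 26.3, 31.6 and 31.9 CPM in mych-/- at 2 dpi, 39.8, 45.9 and 33.2 CPM in Wt at 2 dpi and 16.6, 12.2 and 17.3 CPM in Wt uninjured MG. Log2 fold changes were 1.37 (SE 0.22, adjusted p = 0.000434) with injury and -0.41 (SE 0.22, adjusted p = 0.324) between genotypes.

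Large subunit assembly was represented by 8 members, all called higher with injury (median 2.08), beside 22.3% of all genes. In mych-/- against Wt at 2 dpi 3 were called lower (median -1.04), beside 1.33% of all genes. One of these 3 was ddx18, the relative of yeast Has1, which is needed for both subunits in yeast. Levels of ddx18 were 38.3, 52.4 and 48.2 CPM in mych-/- libraries at 2 dpi, 109, 103 and 125 CPM in Wt libraries at 2 dpi, and 23.00, 20.7 and 19.9 CPM in Wt uninjured libraries. The groups were well apart, at 2.41 (SE 0.19, adjusted p = 3e-06) on the log2 scale with injury and -1.28 (SE 0.18, adjusted p = 0.0138) between genotypes. Its genotype call held under all 8 other settings of the fit, the replicate block included, and in 6 of 9 fits that left out a library. Of those 6 fits, 3 had left out a Wt uninjured library, a group outside the genotype comparison.

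The relative of yeast Dbp10, ddx54, varied little within mych-/- and within uninjured MG. Values of ddx54 in mych-/- MG at 2 dpi were 49.6, 54.1 and 50.95 CPM, against 90.2, 125 and 94.7 CPM in Wt at 2 dpi and 28.3, 27.8 and 27.4 CPM in Wt uninjured libraries. It changed by 1.89 (SE 0.18, adjusted p = 1.1e-05) with injury and -1.0 (SE 0.18, adjusted p = 0.0253) between genotypes on the log2 scale. The third member called in both comparisons was ddx56, the relative of yeast Dbp9. The gene ddx56 had 23.9, 25.5 and 24.1 CPM in mych-/- MG at 2 dpi, 42.03, 50.1 and 51.9 CPM in Wt MG at 2 dpi and 13.6, 13.01 and 9.70 CPM in Wt uninjured MG. Its log2 fold changes were 1.99 (SE 0.21, adjusted p = 2.13e-05) with injury and -0.97 (SE 0.20, adjusted p = 0.0417) between genotypes. Neither gene had overlapping groups.

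Among the other 5 large subunit members, ddx31, the relative of yeast Dbp7, rose most with injury. For ddx31 the libraries gave 7.22, 13.9 and 7.80 CPM in mych-/- at 2 dpi, 23.5, 26.7 and 18.3 CPM in Wt at 2 dpi and 5.80, 2.09 and 3.56 CPM in Wt uninjured MG. Log2 fold changes were 2.58 (SE 0.41, adjusted p = 0.000382) with injury and -1.24 (SE 0.39, adjusted p = 0.115) between genotypes, where the call failed although the libraries did not overlap. For ddx27, the relative of yeast Drs1, 39.5, 47.5 and 41.4 CPM were measured in mych-/- at 2 dpi, 75.3, 70.9 and 114 CPM in Wt at 2 dpi and 22.3, 14.2 and 20.1 CPM in Wt uninjured libraries. It rose with injury at 2.20 (SE 0.24, adjusted p = 3.12e-05) and was not called between genotypes, at -1.02 (SE 0.23, adjusted p = 0.0533), with no overlap in either comparison. The relatives of yeast Mak5, Dbp6 and Spb4, which are ddx24, ddx51 and ddx55, had genotype log2 fold changes of -1.07 (adjusted p = 0.0507), -1.07 (adjusted p = 0.0645) and -0.96 (adjusted p = 0.117), each without overlap of the libraries.

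Outside the subunit lists, ddx21 is a nucleolar helicase that in human cells binds ribosomal RNA genes and small nucleolar RNAs. Levels of ddx21 were 56.5, 72.3 and 61.4 CPM in mych-/- libraries at 2 dpi, 124, 172 and 169.7 CPM in Wt libraries at 2 dpi, and 43.2, 48.7 and 49.01 CPM in Wt uninjured libraries. Every mych-/- library at 2 dpi lay below every Wt library at 2 dpi and above every Wt uninjured library. Its log2 fold change was 1.73 (SE 0.19, adjusted p = 2.96e-05) with injury, -1.29 (SE 0.19, adjusted p = 0.0138) between genotypes and 0.43 (adjusted p = 0.11, not called) for mych-/- at 2 dpi over Wt uninjured. Its genotype call also held under all 8 other settings and in 6 of 9 fits that left out a library. Here too, 3 of those 6 fits had left out a Wt uninjured library. The other member, dhx33, promotes ribosomal RNA transcription in human cells. In mych-/- MG at 2 dpi dhx33 had 3.51, 2.34 and 3.42 CPM, against 7.86, 8.40 and 10.2 CPM in Wt at 2 dpi and 2.60, 0.856 and 2.28 CPM in Wt uninjured libraries. Its log2 fold change was 2.20 (SE 0.47, adjusted p = 0.00274) with injury, and -1.51 (SE 0.46, adjusted p = 0.108) between genotypes, the lowest estimate of the nucleolar group but not called.

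**Figure D3:**
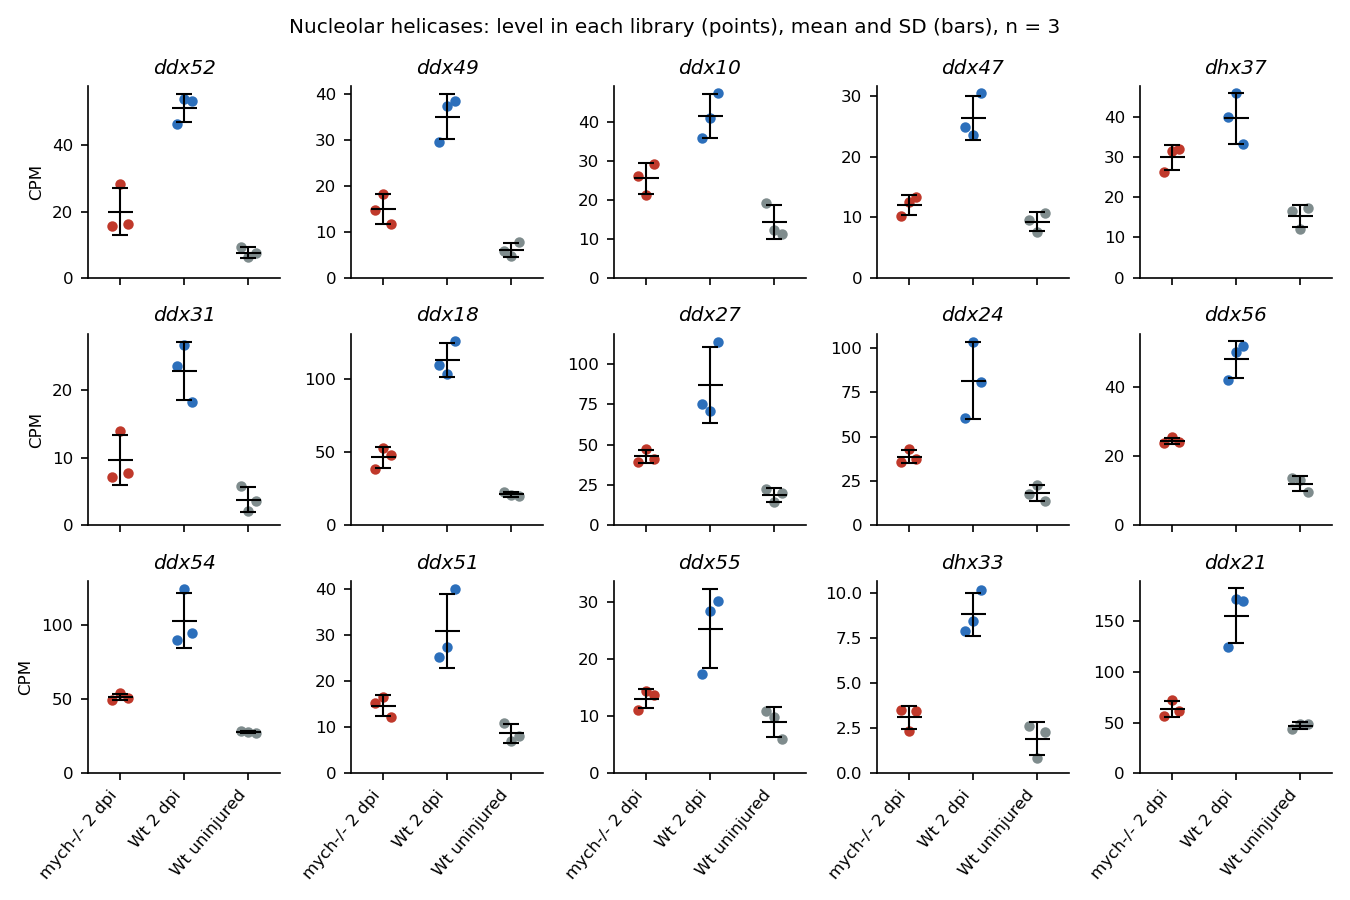
CPM of the 15 nucleolar helicases in each library (points), with the mean and SD of 3 libraries (bars), for mych-/- 2 dpi (red), Wt 2 dpi (blue) and Wt uninjured (grey). Every axis starts at 0. In each panel the 3 blue points lie above the 3 red and the 3 grey points.

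In the third comparison, mych-/- MG at 2 dpi against Wt uninjured MG, 19 members were called higher and 1 lower, beside 25.8% of all genes (16.3% higher, 9.53% lower), and 30 were higher and 4 lower without overlap, beside 24.9% and 21.5%. Of the nucleolar members 10 of 15 were called higher, with a median of 0.96, and 13 of 15 were higher without overlap, beside 24.9% of all genes. The 5 not called were ddx21, ddx47, ddx51, ddx55 and dhx33. Nucleolar helicases of mych-/- MG at 2 dpi thus lay between Wt MG at 2 dpi and Wt uninjured MG: their summed level was 374 to 454 CPM in mych-/- at 2 dpi, 752 to 938 CPM in Wt at 2 dpi and 209.9 to 239 CPM in Wt uninjured libraries.

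Ratios of summed counts within a library do not depend on the scaling between libraries. The sum over nucleolar members divided by that over splicing members was 0.666, 0.811 and 0.713 in mych-/- libraries at 2 dpi, 1.18, 1.38 and 1.25 in Wt libraries at 2 dpi, and 0.471, 0.426 and 0.438 in Wt uninjured libraries. With cytoplasmic members as the divisor it was 0.467, 0.542 and 0.497, against 0.758, 0.888 and 0.984 in Wt at 2 dpi and 0.335, 0.288 and 0.279 in Wt uninjured libraries. No library of a group reached the range of another in either ratio. Long and highly expressed members weigh most in such sums, and the ratios are given without a test.

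**Figure D4:**
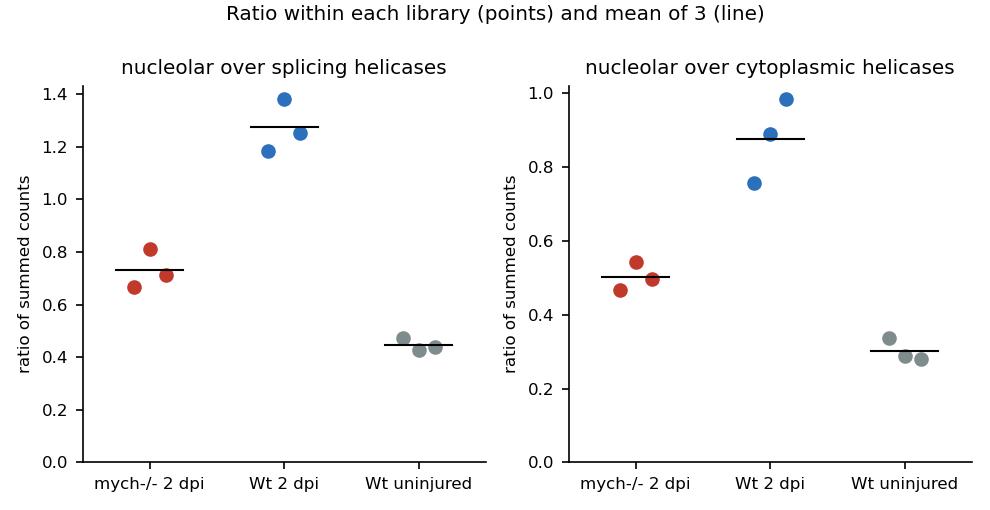
Ratio of summed counts of nucleolar to splicing helicases (left) and of nucleolar to cytoplasmic helicases (right) in each library (points), with the mean of 3 (line). In both, the mych-/- 2 dpi libraries lie between the Wt 2 dpi libraries above and the Wt uninjured libraries below.

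Of the splicing members, dhx15, dhx16 and dhx8 rose with injury. The spliceosome uses dhx16 to start catalysis, dhx8 to release the mRNA and dhx15 to take the complex apart, as known from their yeast relatives Prp2, Prp22 and Prp43. The gene dhx15 had 128, 154 and 130.3 CPM in mych-/- MG at 2 dpi, 180.1, 200.3 and 208 CPM in Wt MG at 2 dpi and 83.7, 85.2 and 90.3 CPM in Wt uninjured MG. Its log2 fold change was 1.18 (SE 0.16, adjusted p = 0.000151) with injury and -0.51 (SE 0.16, adjusted p = 0.117) between genotypes, and it was the splicing member called higher in mych-/- at 2 dpi against Wt uninjured (0.67). In yeast the dhx15 relative also serves ribosome assembly. For dhx16, 32.4, 38.9 and 35.4 CPM were measured in mych-/- at 2 dpi, 52.1, 52.04 and 57.9 CPM in Wt at 2 dpi and 30.9, 23.6 and 24.96 CPM in Wt uninjured libraries. Log2 fold changes were 1.03 (SE 0.18, adjusted p = 0.000906) with injury and -0.60 (SE 0.18, adjusted p = 0.108) between genotypes.

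A smaller rise was that of dhx8. For dhx8 the libraries gave 63.8, 58.99 and 57.7 CPM in mych-/- at 2 dpi, 71.7, 85.5 and 74.2 CPM in Wt at 2 dpi and 51.2, 46.8 and 47.5 CPM in Wt uninjured MG. It changed by 0.67 (SE 0.16, adjusted p = 0.00545) with injury and -0.36 (SE 0.16, adjusted p = 0.249) between genotypes. For all 3 genes the libraries of the genotypes did not overlap, beside 14.5% of all genes that were lower without overlap. No call was made between genotypes. The 6 other splicing members had injury log2 fold changes between -0.53 (ddx41) and 0.34 (ddx46), and their Wt libraries at 2 dpi and uninjured overlapped. Nearly flat across all groups were ddx23, the relative of yeast Prp28, with 114 to 138 CPM in all 9 libraries, and ddx42, a helicase of the U2 particle, with 53.5 to 73.4 CPM. Lower in every mych-/- than in every Wt library at 2 dpi was dhx35, a helicase of the catalytic spliceosome, at -0.54 (SE 0.25, adjusted p = 0.272). These 3 were picked after their values were seen.

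The export members act on mRNA on its way through the nuclear pore. Proteins of the ddx39 family load export factors onto spliced mRNA, and ddx19 proteins remodel the particle on the cytoplasmic side of the pore. Levels of ddx39ab were 154, 211 and 159 CPM in mych-/- libraries at 2 dpi, 288, 361 and 380.3 CPM in Wt libraries at 2 dpi, and 64.3, 57.7 and 64.2 CPM in Wt uninjured libraries. Without overlap in either comparison, ddx39ab changed by 2.47 (SE 0.20, adjusted p = 3.5e-06) with injury and -0.97 (SE 0.19, adjusted p = 0.0372) between genotypes on the log2 scale. Its near copy ddx39aa had 54.9, 81.3 and 63.8 CPM in mych-/- at 2 dpi, 96.2, 126 and 133 CPM in Wt at 2 dpi and 30.3, 27.7 and 31.1 CPM in Wt uninjured libraries. It was called higher with injury, at 2.00 (SE 0.20, adjusted p = 1.82e-05), and not called between genotypes, at -0.83 (SE 0.20, adjusted p = 0.0584). The third gene, ddx39b, was called in neither comparison. Values of ddx39b in mych-/- MG at 2 dpi were 31.3, 36.9 and 40.1 CPM, against 36.1, 35.9 and 60.3 CPM in Wt at 2 dpi and 23.96, 33.1 and 31.3 CPM in Wt uninjured libraries. Its log2 fold change was 0.58 (SE 0.24, adjusted p = 0.0735) with injury and -0.29 (SE 0.24, adjusted p = 0.571) between genotypes.

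The largest fold change of any called helicase was that of ddx19a. The gene ddx19a had 12.2, 15.04 and 13.8 CPM in mych-/- MG at 2 dpi, 22.2, 33.5 and 25.02 CPM in Wt MG at 2 dpi and 0.166, 0 and 0.527 CPM in Wt uninjured MG. In counts these were 1423, 2634 and 1600 reads in Wt libraries at 2 dpi, against 9, 0 and 33 in Wt uninjured libraries. On the log2 scale it changed by 6.76 (SE 0.74, adjusted p = 3.21e-05) with injury and -0.98 (SE 0.55, adjusted p = 0.359) between genotypes, the second not called although the libraries did not overlap. With a library left out the injury value was 6.27 to 8.18, the highest without Wt uninjured replicate 3. Its relative ddx19b was present in all groups. In mych-/- MG at 2 dpi ddx19b had 77.6, 90.2 and 82.9 CPM, against 143, 148 and 148 CPM in Wt at 2 dpi and 46.8, 39.7 and 49.3 CPM in Wt uninjured libraries. It rose by 1.69 on the log2 scale with injury (adjusted p = 1.29e-05) and was called lower in mych-/- at -0.81 (SE 0.16, adjusted p = 0.0387). How reads of near copies such as ddx39aa and ddx39ab were assigned is not stated, so the split between them is uncertain, as it is for ddx19a and ddx19b and for ddx3xa and ddx3xb.

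Of the cytoplasmic members, ddx3xb and ddx61 rose with injury. The ddx3x proteins help translation to start on mRNAs with structured leaders, and ddx6 proteins repress translation and promote decapping. For ddx3xb the libraries gave 376, 399 and 399 CPM in mych-/- at 2 dpi, 496, 553 and 462 CPM in Wt at 2 dpi and 312, 334 and 328 CPM in Wt uninjured MG. It rose with injury at 0.63 (SE 0.17, adjusted p = 0.00894), and was -0.36 (SE 0.17, adjusted p = 0.257) between genotypes, with no overlap in either comparison. The copy ddx3xa was called in neither comparison. Values of ddx3xa in mych-/- MG at 2 dpi were 255, 264 and 239.8 CPM, against 245, 253 and 249 CPM in Wt at 2 dpi and 251, 245 and 309 CPM in Wt uninjured libraries. Its log2 fold changes were -0.11 with injury and 0.02 between genotypes.

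The other cytoplasmic rise was that of ddx61, here placed beside ddx6. Levels of ddx61 were 104, 102 and 104 CPM in mych-/- libraries at 2 dpi, 171, 155 and 169.6 CPM in Wt libraries at 2 dpi, and 69.2, 63.9 and 58.2 CPM in Wt uninjured libraries. Log2 fold changes were 1.37 (SE 0.16, adjusted p = 4.11e-05) with injury and -0.68 (SE 0.16, adjusted p = 0.0526) between genotypes, the second just short of the threshold with no overlap between libraries. Picked afterwards as its partner, ddx6 had 15.02, 15.3 and 12.7 CPM in mych-/- at 2 dpi, 20.8, 11.3 and 15.4 CPM in Wt at 2 dpi and 21.7, 26.2 and 21.6 CPM in Wt uninjured libraries. It was not called in either comparison, with log2 fold changes of -0.55 (SE 0.26, adjusted p = 0.106) with injury, where the groups did not overlap, and -0.14 (SE 0.25, adjusted p = 0.838) between genotypes. Of the remaining 3, dhx29, a scanning factor of translation, had the largest injury estimate (log2 fold change 0.44, SE 0.20, adjusted p = 0.0959, not called).

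Ratios within pairs are also free of the scaling between libraries. The log2 ratio of ddx61 to ddx6 averaged 3.43 ± 0.37 in Wt at 2 dpi and 1.47 ± 0.20 in Wt uninjured libraries (SD, n = 3 each, difference 1.96), and that of ddx39ab to ddx39b averaged 2.99 ± 0.34 in Wt at 2 dpi and 1.09 ± 0.31 in Wt uninjured libraries (SD, n = 3 each, difference 1.91). For ddx3xb over ddx3xa the difference with injury was 0.73. Between genotypes, mych-/- minus Wt at 2 dpi, the differences were -0.58 for ddx61 over ddx6, -0.73 for ddx39ab over ddx39b and -0.38 for ddx3xb over ddx3xa. The log2 ratio of ddx39aa to ddx39ab averaged -1.54 ± 0.04 in Wt at 2 dpi and -1.06 ± 0.02 in Wt uninjured libraries (SD, n = 3 each). All 4 of these ratios separated the groups completely in both comparisons, with an exact two-sided permutation p of 0.1, the smallest that 3 against 3 libraries allow, and 0.111 after adjustment over the 10 ratio tests, so none could pass 0.05. The pairs were chosen with results of these data known, and separation was not counted over other gene pairs.

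**Figure D5:**
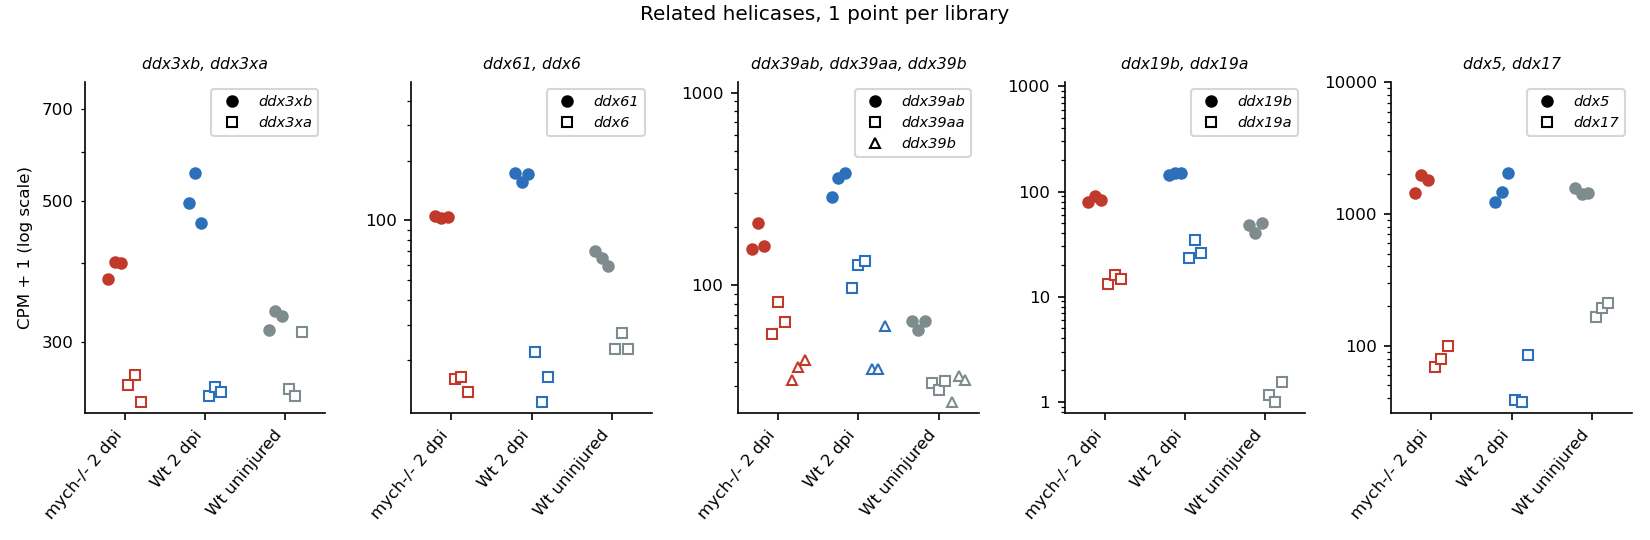
CPM + 1 on a log axis for related helicases in each library, for mych-/- 2 dpi (red), Wt 2 dpi (blue) and Wt uninjured (grey). Symbols tell the genes of a panel apart, and levels should be read across groups within a gene, since values are not scaled by gene length. The filled circles of ddx3xb, ddx61 and ddx39ab are highest at 2 dpi in Wt, whereas the groups of ddx3xa overlap and ddx17 lies below its uninjured values in both 2 dpi groups.

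Other nuclear members bind RNA polymerase II transcripts or act in several steps. The one member called lower with injury was ddx17, a cofactor of transcription and splicing and of miRNA processing in human cells. The gene ddx17 had 67.6, 78.1 and 97.98 CPM in mych-/- MG at 2 dpi, 37.9, 36.6 and 84.3 CPM in Wt MG at 2 dpi and 165, 194 and 209 CPM in Wt uninjured MG. All 3 Wt libraries at 2 dpi were below all Wt uninjured ones, with replicate 3 standing above the other 2, and the mych-/- libraries overlapped those of Wt at 2 dpi. Log2 fold changes of ddx17 were -1.84 (SE 0.31, adjusted p = 0.000582) with injury, 0.62 (SE 0.30, adjusted p = 0.282) between genotypes (not called) and -1.22 for mych-/- at 2 dpi over Wt uninjured (called). Its close relative ddx5, picked as the partner of ddx17, had 1451, 1962 and 1812 CPM in mych-/- at 2 dpi, 1228, 1463 and 2037 CPM in Wt at 2 dpi and 1576, 1417 and 1443 CPM in Wt uninjured libraries. It had log2 fold changes of 0.09 with injury and 0.14 between genotypes, neither called. The log2 ratio of ddx17 to ddx5 averaged -4.43 ± 0.22 in mych-/- at 2 dpi, -4.98 ± 0.37 in Wt at 2 dpi and -2.97 ± 0.25 in Wt uninjured libraries (SD, n = 3 each). The exact permutation p was 0.2 between genotypes and 0.1 with injury.

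A tRNA ligase subunit in human cells, ddx1 had 41.4, 45.7 and 50.2 CPM in mych-/- at 2 dpi, 67.04, 68.4 and 62.9 CPM in Wt at 2 dpi and 39.9, 32.1 and 31.7 CPM in Wt uninjured libraries. It rose with injury at 0.94 (SE 0.18, adjusted p = 0.00121), and the genotype difference of -0.53 (SE 0.17, adjusted p = 0.129) was not called, though no libraries overlapped. Weaker was the rise of dhx9, which resolves RNA and DNA structures in human nuclei. For dhx9 the libraries gave 80.02, 95.00 and 96.8 CPM in mych-/- at 2 dpi, 108, 115 and 113 CPM in Wt at 2 dpi and 64.2, 81.97 and 82.99 CPM in Wt uninjured MG. Its log2 fold change with injury, 0.55 (SE 0.17, adjusted p = 0.0212), lay close to the fold threshold, and the call was lost without Wt 2 dpi replicate 2 or Wt uninjured replicate 1 and with upper quartile scaling. The SMN complex helicase ddx20 was not called in either comparison (0.77 with injury and -0.17 between genotypes).

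Beyond these groups, 2 of 6 members rose with injury, beside 22.3% of all genes. One was ddx11, a DNA helicase of sister chromatid cohesion rather than an RNA helicase. Levels of ddx11 were 7.29, 11.2 and 10.1 CPM in mych-/- libraries at 2 dpi, 13.4, 15.7 and 14.4 CPM in Wt libraries at 2 dpi, and 1.07, 0.952 and 4.09 CPM in Wt uninjured libraries. It rose at 2.82 (SE 0.52, adjusted p = 0.00106) and differed by -0.61 (SE 0.48, adjusted p = 0.541) between genotypes, not called. The other was dhx57, of little known function. In mych-/- MG at 2 dpi dhx57 had 32.5, 28.02 and 28.00 CPM, against 28.5, 39.03 and 34.6 CPM in Wt at 2 dpi and 14.8, 15.2 and 11.8 CPM in Wt uninjured libraries. It changed by 1.29 (SE 0.21, adjusted p = 0.000487) with injury and -0.21 (SE 0.21, adjusted p = 0.655) between genotypes, where the libraries overlapped.

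The only helicase that was higher in every mych-/- than in every Wt library at 2 dpi was dhx40, chosen after its values were seen. The gene dhx40 had 26.1, 30.2 and 42.8 CPM in mych-/- MG at 2 dpi, 22.4, 19.1 and 22.1 CPM in Wt MG at 2 dpi and 12.4, 21.2 and 13.5 CPM in Wt uninjured MG. The genotype log2 fold change was 0.64 (SE 0.27, adjusted p = 0.22), not called, while mych-/- at 2 dpi over Wt uninjured was called at 1.07 (SE 0.27, adjusted p = 0.0116). The innate RNA sensor gene dhx58 (lgp2), likewise chosen afterwards, had 1 library far above the rest. Values of dhx58 in mych-/- MG at 2 dpi were 3.51, 4.03 and 3.67 CPM, against 2.24, 31.2 and 1.97 CPM in Wt at 2 dpi and 0.314, 2.00 and 3.05 CPM in Wt uninjured libraries. The 31.2 CPM of Wt 2 dpi replicate 2 stood apart from the other 8 libraries, and its log2 fold changes, 2.72 (SE 1.03, adjusted p = 0.0526) with injury and -1.66 (SE 0.99, adjusted p = 0.385) between genotypes, were not called. Without that library they were 0.23 and 0.83. The mitochondrial members ddx28 and dhx30 were called in neither comparison by edgeR or DESeq2 (1 of the 2 had an unadjusted p under 0.05 with injury, beside 49.7% of all genes, and 0 between genotypes).

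Related helicases under other symbols, and genes that act with helicases as cofactors or complex partners, were listed by role. The latter are called cofactors here and were not sorted by their effect on a helicase. Genes named from these lists were chosen after their values were seen. Of 17 related helicases 10 rose and 2 fell with injury (median 0.97), beside 22.3% and 19.8% of all genes. Between genotypes 3 fell in mych-/- (median -0.36), beside 1.33% of all genes. Those 3 were mtrex, the exosome's helicase (log2 fold change -0.99, SE 0.17, adjusted p = 0.0253), aqr, a spliceosomal helicase (log2 fold change -0.89, SE 0.19, adjusted p = 0.0426), and mov10b.1, a relative of the MOV10 helicase (log2 fold change -2.67, SE 0.44, adjusted p = 0.0195). The translation initiation helicase eif4a1a rose with injury by 3.06 on the log2 scale, with 540.3, 668 and 439 CPM in mych-/- libraries at 2 dpi, 849, 1126 and 844 CPM in Wt libraries at 2 dpi, and 95.1, 113 and 129 CPM in Wt uninjured libraries. Its relative eif4a2 was called lower, at -0.87 (SE 0.20, adjusted p = 0.00429).

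Of 45 cofactors 24 rose and 3 fell with injury (median 0.66), beside 22.3% higher and 19.8% lower over all genes. In mych-/- 1 of the 45 was called lower (median -0.38), a share near the 1.33% of all genes. Short of a call, 18 had an unadjusted p under 0.05, beside 19.4% of all genes. The log2 fold change was negative for 36 and positive for 9. Without overlap 17 were lower and 1 higher, beside 14.5% and 9.28% of all genes. The one called lower was nop53, a large subunit assembly factor that brings the exosome to pre-ribosomes (log2 fold change -1.12, SE 0.19, adjusted p = 0.0242). The largest injury rises were those of noc2l, a relative of a yeast large subunit assembly factor (log2 fold change 3.25, SE 0.28, adjusted p = 5.78e-06), and of gpatch4, a nucleolar G-patch protein that activates dhx15 in human cells (log2 fold change 2.86, SE 0.31, adjusted p = 2.75e-05). The 3 that fell with injury were the G-patch genes gpatch8 (log2 fold change -1.55, SE 0.21, adjusted p = 0.000118), rbm5 (-1.55, SE 0.22, adjusted p = 0.000159) and gpatch3 (-0.89, SE 0.33, adjusted p = 0.04899). The call of gpatch3 lay at the threshold and its Wt libraries overlapped, unlike those of gpatch8 and rbm5. In mych-/- at 2 dpi against Wt at 2 dpi, rbm5, a splicing regulator, had a log2 fold change of 0.76 (SE 0.21, adjusted p = 0.0868) and was not called, although no mych-/- library overlapped a Wt one.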

How the data were processed

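RNAseq was carried out on polyA RNA of GFP+ MG from 3 groups of 3 libraries, grouped and numbered by the sample labels. The authors deposited whole-number read counts, by Ensembl gene ID and library, without normalization. The submitters' processing notes name cutadapt 2.3, FastQC 0.11.8, STAR 2.7.8a, RSEM 1.3.3 and DESeq2 and the builds GRCh38 and GRCz11, without saying what each was used for, and the study mapped its reads to GRCz11. How reads were counted, with which annotation and whether by strand is not given in the sources used here, so genes that overlap, lie antisense or resemble a copy are uncertain. Symbols came from a names table (93.4% of IDs had a symbol, 3146 IDs shared one). For ddx39aa, ddx39ab and ddx19b the names of the study's supplement were used instead. No sequences and coordinates were used here.

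The main test was edgeR 4.0.16 (R 4.3.3) on these counts, with filterByExpr by group (20484 genes), TMM scaling, a mean per group over 9 libraries and robust quasi-likelihood F tests, with p-values adjusted by Benjamini-Hochberg across the whole table. Calls needed an adjusted p of 0.05 or less and a log2 fold change beyond 0.5, without the study's FPKM threshold. A fold change against a group at 3 counts or fewer per library was not printed. CPM were computed on TMM-scaled library sizes. The common biological coefficient of variation over the 20484 genes was 62.2%. It is 1 value for all genes and does not give the spread of a single member. Ratios within pairs of genes were compared by exact two-sided permutation tests over libraries. Role groups, related helicases, cofactors and marker lists were set by gene symbol. The members and lists were chosen with earlier results of these data known.

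Values per library were given for members called between genotypes, for up to 3 called members per role group with the largest injury change, for up to 5 called lower with injury, and for members of their paralog pairs. Other members named with values were chosen after their values were seen. These are ddx5, ddx6, ddx20, ddx23, ddx24, ddx28, ddx41, ddx42, ddx46, ddx51, ddx55, dhx29, dhx30, dhx35, dhx37, dhx40 and dhx58. The alternatives tried were other scalings, DESeq2 1.42.0's Wald test, no filter, no robust dispersion, only the 6 libraries compared, blocking on replicate number, fold thresholds of 0 and 1, and each library left out in turn. Both tools were run on simulated data with known changes. The simulation covered the injury comparison only, changed few genes and used a spread below the common one of these data. It therefore cannot speak for the genotype calls. No pair of libraries agreed within sampling noise. Tables were handled with pandas 2.3.3 and scipy 1.17.1 and figures with matplotlib 3.10.9, in Python 3.11.15.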

Additional observations from a re-analysis of the deposited data

How the results depend on the processing

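Of 29 members called in Wt 2 dpi against Wt uninjured, leaving out a library gave 28 to 33. All 15 nucleolar members were called each time. These fits called 33.1% to 41.3% of all genes, against 42.1% with all libraries. For mych-/- 2 dpi against Wt uninjured the count of 20 was 18 to 21 when a library was left out. The share of all genes called there was 17.8% to 25%, against 25.8% with all libraries. With a fold threshold of 1 on the log2 scale the counts of 29, 15 and 20 were 25, 15 and 14. The splicing count of 3 was then 2 and the cytoplasmic count of 2 was 1. The share of all genes was not counted at this threshold. Between genotypes the count of 9 members was 20 by DESeq2 and 5 by library size only. It was 5 with only the 6 libraries compared, 2 with the replicate block, and 0 to 13 when a library was left out. Of all genes, the shares called in the same order were 1.69%, 8.68%, 1.04%, 1.13%, 0.542% and 0.0376% to 4.81%. The nucleolar count of 7 was 13 by DESeq2, 4 by library size only, 4 with upper quartile scaling and 2 with the replicate block. It was 0 to 10 when a library was left out. Of all genes, 1.08% were called between genotypes with upper quartile scaling. DESeq2 called 2 splicing and 1 cytoplasmic member between genotypes, where edgeR called 0 of each. The splicing median between genotypes, -0.36, was -0.26 by library size only, which moved the median of all genes to 0.11, and -0.40 to -0.19 when a library was left out. With injury, the splicing median of 0.25 was 0.10 to 0.32 when a library was left out. No called value changed sign. Uncalled ones did when a library was left out, among them the genotype values of dhx58 (-2.16 to 0.83), dhx30 (-0.67 to 0.11) and ddx6 (-0.33 to 0.11) and the injury value of ddx5 (-0.14 to 0.24). The cause of the differences was not tested. Same-numbered libraries did not deviate together across all genes (correlations of -0.08 to 0.09 over 9 pairs). Such correlations cannot exclude a pairing that affects few genes.

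The 27 helicases named by rule were followed over the 8 other settings and the 9 fits that left out a library (fold thresholds aside). Injury results kept their side of the threshold in 455 cases, lost a call in 3 and gained one in 1. Genotype results kept it in 380, lost a call in 65 and gained one in 14. Only the 9 helicases called between genotypes in the main fit could lose a call there. Many of the 380 cases were thus uncalled genes that stayed uncalled. Low counts limited ddx4 and ddx43, with under 1 CPM in every group. Genes with differences under the fold threshold, such as most splicing and cytoplasmic members, cannot be called unchanged at 3 libraries per group.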
